A study of Homo sapiens with 36 samples.

Results

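The comparison described here is the response of HT29 cells to the lowest of 3 doses of ACD, an extract made by boiling the processed root of *Aconitum carmichaeli* Debeaux (Aconiti Lateralis Radix Preparata) in water. The plant is a monkshood used in traditional medicine. HT29 is an established line of human colorectal adenocarcinoma cells. It was chosen by cell line, batch and dose, and comprised 6 of the 36 libraries of the series: 3 of HT29 cells given 20 µg/mL ACD for 24 h and 3 of HT29 cells given vehicle for 24 h in the same batch, named batch B. The vehicle was buffered saline with DMSO, at 0.1% DMSO by the labels, and the extract was dissolved in the same carrier. Batch B also held HT29 cells at 100 µg/mL (medium dose) and 500 µg/mL (high dose), and SW1783 cells, an astrocytoma line, under the same arms. The comparison asks which genes of an intestinal cell line respond at the bottom of the dose range. All groups come from 1 cancer cell line each, and it is not stated whether replicates were separate cultures, so that p-values measure only the spread between these samples, which may be technical.

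The 6 libraries held 18260755 to 31811972 counts (median 24659418). The limit that 0 counts set is 3 counts, or 0.094 to 0.164 CPM (counts scaled to library size), for counting error only. Precision was set by abundance: across 10927 genes averaging at least 100 normalized counts, log2 fold changes had a median standard error (SE) of 0.12. The 12 epithelial markers of the HT29 list summed to 11267.6 to 12872.3 CPM in vehicle and 11315.2 to 12690.2 CPM at the low dose, and 0 of the 12 passed the test. The 12 markers of the SW1783 list summed to 5.64 to 6.04 CPM and 5.87 to 6.85 CPM, with COL1A2, SPARC, S100B and CHI3L1 at 0 counts in all 6 libraries. Both groups thus carried the markers of the labelled cell type at like levels. The vehicle libraries of batch B stood close to those of the other HT29 batch, batch A, with the same number: the chi-square of their counts per degree of freedom was 1.46 to 1.54, against 4.04 to 17.3 between vehicle replicates of batch B. The vehicle of batch A was therefore not taken as an independent check.

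By background, water extracts of plants hold many small molecules that epithelial cells sense through ligand-activated transcription factors. The aryl hydrocarbon receptor (AhR) is one of these: once bound by a planar aromatic ligand it enters the nucleus, pairs with ARNT and activates genes of xenobiotic metabolism such as CYP1A1 and CYP1B1, together with the repressors AHRR and TIPARP that end its activity. Intestinal epithelial cells also make chemokines that attract neutrophils, and complement and immunoglobulin transport proteins, many of them under the control of NF-kB. ACD itself is known for its diterpene alkaloids, which act on sodium channels of excitable cells.

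At the low dose 48 of 17196 genes tested (0.279%) passed an adjusted p-value under 0.05 with a change of more than 1.5-fold, the definition of a differentially expressed gene (DEG) used throughout. They were 23 genes that rose and 25 that fell. Protein-coding genes supplied 19 DEGs of 13111 tested (0.145%), of which 17 rose (0.13%) and 2 fell (0.0153%). Multi-copy RNA genes, here non-coding genes of small structural, ribosomal and mitochondrial RNAs, lncRNA genes of the acrocentric short arms and genes with the same counts as another gene, supplied 5 DEGs of 323 (1.55%), 2 that rose (0.619%) and 3 that fell (0.929%), and the other non-coding genes supplied 24 of 3547 (0.677%), of which 20 fell (0.564%) and 4 rose (0.113%). Most coding DEGs rose and most of the other non-coding DEGs fell. RNA of whole cultures was measured, so that fewer cells of a kind and less RNA per cell cannot be told apart. All 48 had 3 low dose libraries on one side of the 3 vehicle libraries, which held for 20.0% of all genes tested. The 48 were chosen for their difference between these same libraries, so that this was to be foreseen and is no further support. The count of DEGs was 25 without vehicle replicate 2 and 31 without low dose replicate 3, and edgeR's quasi-likelihood test called 18 DEGs (0.117%), 9 of them protein-coding (0.0723%).

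**Figure D1:**
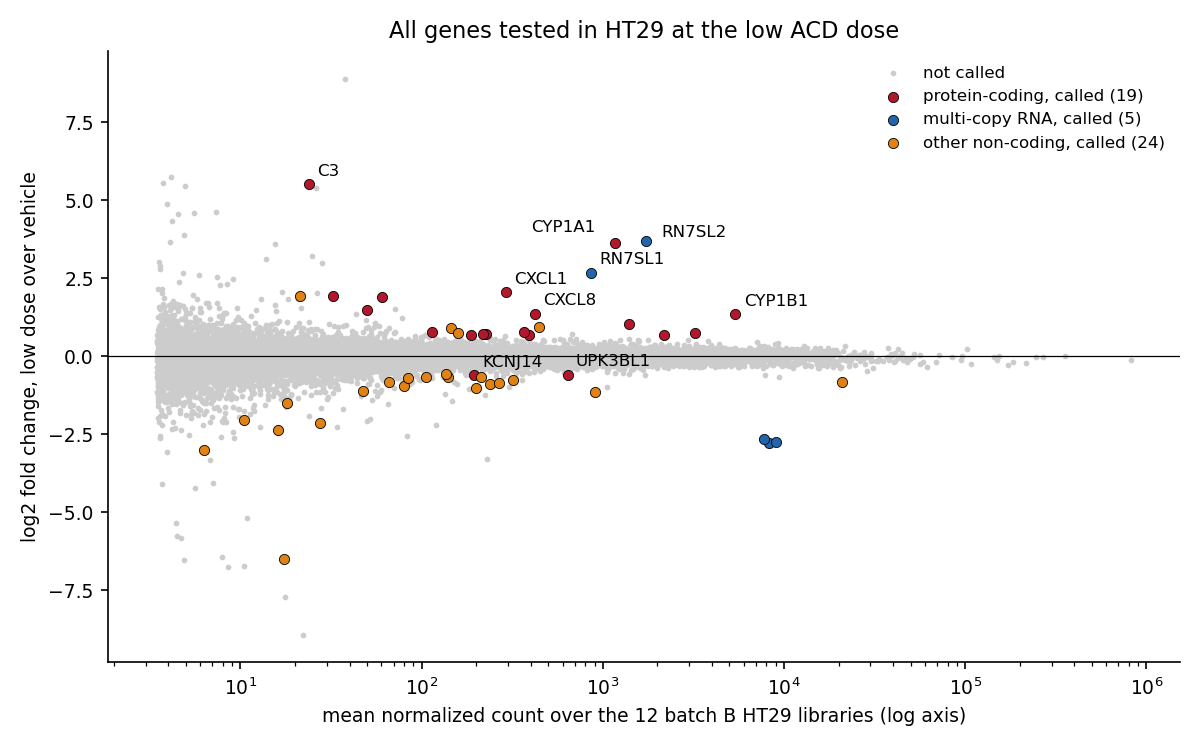
Log2 fold change at the low ACD dose over vehicle (vertical axis) against the mean normalized count over 12 HT29 libraries (horizontal log axis) for all 17196 genes tested. Of the 19 protein-coding DEGs (red) 17 lie above 0, of the 5 multi-copy DEGs (blue) RN7SL1 and RN7SL2 do, and of the 24 other non-coding DEGs (orange) 4 do.

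Genes of the AhR list, with ALDH1A3, formed a first group of coding genes that rose. CYP1A1, a cytochrome P450 that oxidizes polycyclic aromatic hydrocarbons, lies on chromosome 15 at 74719542 to 74725536 (GRCh38, minus strand). Its normalized counts were 2.6, 9.5 and 8.5 in vehicle replicates 1, 2 and 3 and 141.1, 52.9 and 80.0 in the low dose replicates. The lowest low dose library was far above the highest vehicle library. The change was 3.64 ± 0.40 on the log2 scale (12.4-fold, adjusted p = 3e-16 by DESeq2), and edgeR gave an adjusted p of 0.00347. In raw counts the gene was near the bottom of the range in vehicle, with 2, 13 and 8 counts.

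CYP1B1, a related P450 on chromosome 2 (38066973 to 38109902, minus strand) that also metabolizes oestrogens, started from a far higher level. It was at 1057.8, 1147.2 and 1253.4 normalized counts in vehicle and at 3747.4, 2451.9 and 2547.4 at the low dose. The groups did not overlap and low dose replicate 1 stood above its group. The rise was 1.34 ± 0.15 (2.53-fold, adjusted p = 9.69e-15), and leaving out any of the 6 libraries kept the call, with values from 1.12 to 1.45. CYP1B1-AS1, a long non-coding RNA (lncRNA) transcribed from the opposite strand across part of the gene, rose too, from 51.6, 60.7 and 66.0 to 145.3, 94.8 and 96.2 (0.91 ± 0.21, adjusted p = 0.0061 by DESeq2 and 0.105 by edgeR). At the low dose its libraries stood in the same order as those of CYP1B1, with replicate 1 highest. The strand setting of the counting was not stated, so that reads of the 2 genes cannot be told apart where they overlap.

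TIPARP, a mono-ADP-ribosyltransferase that AhR induces and that represses it, had 1474.8, 1548.2 and 1663.0 normalized counts in vehicle and 2930.5, 2339.3 and 2566.9 at the low dose. All low dose libraries were above all vehicle libraries. The rise was 0.74 ± 0.09 (1.67-fold, adjusted p = 1.05e-12). ALDH1A3, an enzyme that makes retinoic acid and was not on the AhR list, rose from 425.0, 456.5 and 463.9 to 1046.8, 799.1 and 889.5 (1.02 ± 0.11, adjusted p = 5.34e-18). CYP1A1, CYP1B1, TIPARP and ALDH1A3 all had their highest low dose value in replicate 1.

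The other members of the AhR list moved less. ALDH3A1, an aldehyde dehydrogenase, was at 550.7, 519.5 and 501.1 in vehicle and at 644.2, 659.1 and 702.5 at the low dose (0.35 ± 0.08, adjusted p = 0.00181 by DESeq2 and 0.0957 by edgeR), a rise under the 1.5-fold limit. Unlike the 4 genes above, it was lowest in low dose replicate 1. AHRR, the AhR repressor, was at 79.4, 128.8 and 110.7 against 126.2, 127.2 and 123.2 and did not pass the test (0.22 ± 0.22, adjusted p = 0.956). AHR itself (0.03 ± 0.08), its partner ARNT (0.19 ± 0.11), NQO1 (0.03 ± 0.15), UGT1A6 (0.13 ± 0.13), NFE2L2 (0.07 ± 0.08) and the efflux pump ABCG2 (0.10 ± 0.07) did not pass the test either. CYP1A2 was at or under 1 normalized count in the 6 libraries, and LRAT had 0 counts. Of 11 members tested 4 rose and 0 fell by adjusted p-value, against 0.29% of protein-coding genes that rose, with a median log2 fold change of 0.187 over the list and 0.01 over all protein-coding genes tested.

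**Figure D2:**
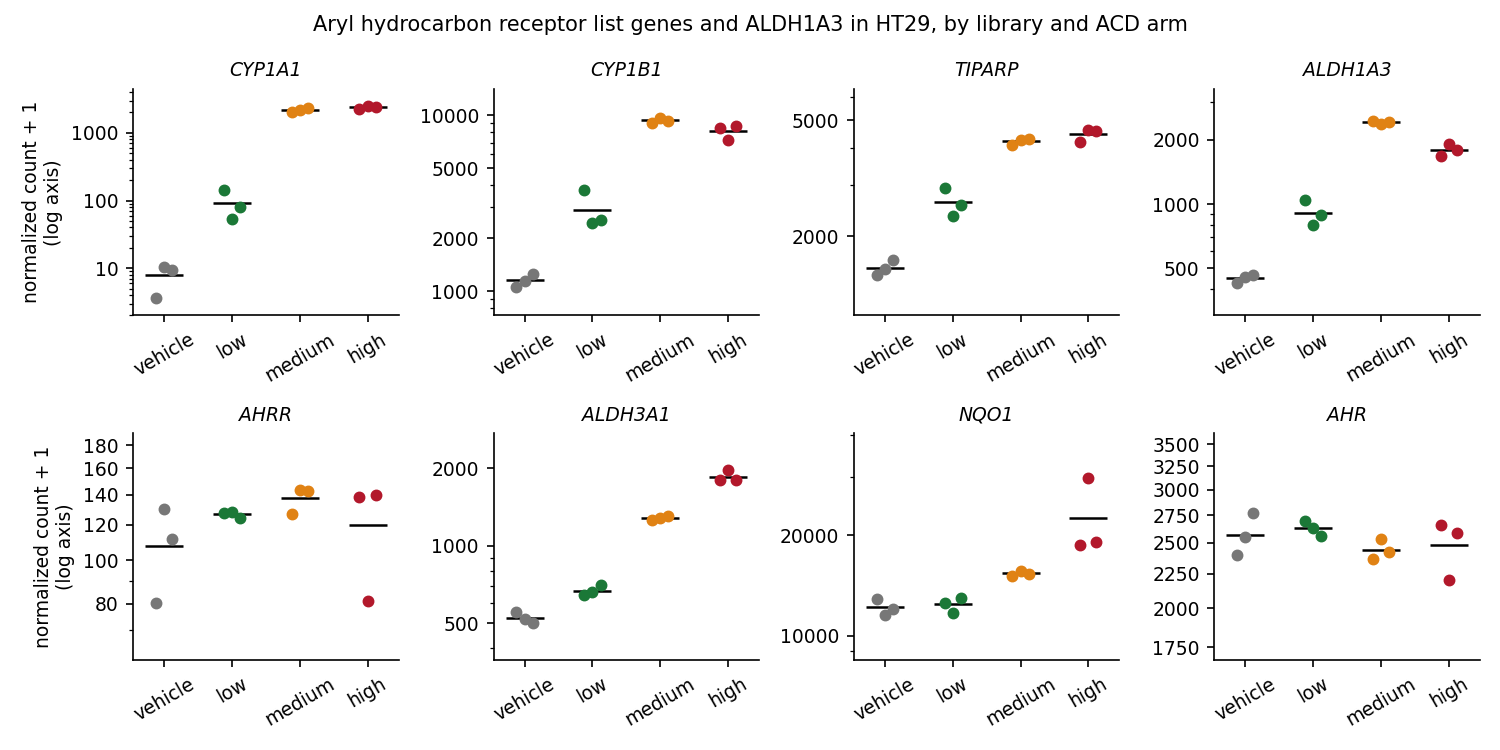
Normalized counts plus 1 (log axis, scaled per panel) of 7 genes of the AhR list and ALDH1A3 in the 12 HT29 libraries of batch B. Points are libraries and bars are group means (n = 3): CYP1A1, CYP1B1, TIPARP and ALDH1A3 were higher in every low dose library than in any vehicle library and higher again at the medium dose, whereas AHR and NQO1 overlapped between vehicle and low dose.

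The promoters of the genes of this group for which RefSeq windows were at hand are shown because AhR and ARNT bind DNA at a core of the letters GCGTG. The windows reach from 250 bases before to 50 bases after the start site on GRCh38.p14, and the 250 bases before the start are printed 5′ to 3′ on the gene's strand, with matches to GCGTG or its reverse complement CACGC in capitals. CYP1A1 is at chr15:74725529-74725778 (minus strand), the first of 3 TIPARP start sites at chr3:156674340-156674589 (plus) and ALDH1A3 at chr15:100879581-100879830 (plus).
CYP1A1: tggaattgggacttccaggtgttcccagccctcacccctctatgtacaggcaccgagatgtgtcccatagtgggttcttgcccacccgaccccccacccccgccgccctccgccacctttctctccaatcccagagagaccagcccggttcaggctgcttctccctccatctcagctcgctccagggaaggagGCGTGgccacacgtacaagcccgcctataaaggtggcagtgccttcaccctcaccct
TIPARP: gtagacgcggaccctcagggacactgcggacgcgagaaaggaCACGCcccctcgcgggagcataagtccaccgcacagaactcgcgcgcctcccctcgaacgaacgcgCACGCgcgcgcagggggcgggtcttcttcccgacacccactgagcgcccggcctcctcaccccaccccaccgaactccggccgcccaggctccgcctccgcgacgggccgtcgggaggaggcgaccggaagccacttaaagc
ALDH1A3: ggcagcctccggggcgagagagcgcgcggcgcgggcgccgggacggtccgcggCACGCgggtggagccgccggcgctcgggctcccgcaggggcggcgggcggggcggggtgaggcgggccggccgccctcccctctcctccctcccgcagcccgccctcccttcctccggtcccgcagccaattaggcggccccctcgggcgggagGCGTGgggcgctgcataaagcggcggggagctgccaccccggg
CYP1A1 had 1 match, starting 57 bases before the start site, and TIPARP and ALDH1A3 had 2 each. The core is short, and 36.5% of all 35116 RefSeq windows, or 40.6% of genes by their best window, held it. Among the 15 coding DEGs with a window 8 held it. CYP1B1 and ALDH3A1 were without a window. A match is a string of letters and not a measured binding site.

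Several chemokine genes and other genes of the inflammatory chemokine and NF-kB list also rose. CXCL6, PIGR, PI3 and TLR4 are described with them but were on no list, and TLR4 was named after its values were seen. CXCL1, CXCL6 and CXCL8 are neutrophil-attracting chemokines encoded near each other on chromosome 4, and CCL20 attracts lymphocytes and dendritic cells through CCR6. CXCL1 had 47.7, 35.1 and 36.2 normalized counts in vehicle and 153.6, 163.9 and 164.3 at the low dose, with a narrow spread in both groups. It rose by 2.04 ± 0.22 (4.12-fold, adjusted p = 3.91e-17 by DESeq2 and 0.0017 by edgeR). CXCL8 (interleukin-8) rose from 119.1, 101.0 and 90.4 to 257.4, 251.9 and 283.2 (1.35 ± 0.26, adjusted p = 0.00024). CXCL6 was rarer, at 7.9, 8.0 and 7.4 in vehicle and 24.1, 30.7 and 34.6 at the low dose (1.92 ± 0.44, adjusted p = 0.0038). CCL20 was at 5.3, 8.8 and 11.7 and at 28.2, 31.6 and 38.9 (1.90 ± 0.40, adjusted p = 0.0014). No low dose library of these 4 genes reached down to its vehicle group, but edgeR called only CXCL1 among them, with adjusted p-values of 0.0732 for CXCL6, 0.0791 for CCL20 and 0.0957 for CXCL8.

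C3, the central component of complement, had the largest fitted coding change and the thinnest vehicle counts. It had 1, 0 and 0 raw counts in vehicle and 14, 23 and 17 at the low dose. The groups were apart, at 54 counts against 1, a ratio per library total of 50.4 with an exact 95% counting interval of 8.67 to 2026.3. The fitted log2 fold change was 5.51 ± 1.23 (adjusted p = 0.00278 by DESeq2 and 0.00848 by edgeR), and its size rests on the single vehicle count. C3 overlaps 2 other genes on its strand.

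PIGR, the receptor that carries IgA across the epithelium, rose from 27.8, 21.2 and 24.5 to 60.6, 66.6 and 73.5 (1.47 ± 0.26, adjusted p = 9.98e-06), a call that held in all 6 fits with a library left out. PI3 encodes elafin, an inhibitor of neutrophil elastase. It rose from 109.9, 80.5 and 84.1 to 158.6, 140.0 and 139.4 (0.70 ± 0.16, adjusted p = 0.00507 by DESeq2 and 0.0936 by edgeR). LCN2, which binds bacterial siderophores, rose below the fold limit, from 2234.7, 1999.6 and 1986.4 to 2596.8, 2685.9 and 2834.9 (0.38 ± 0.09, adjusted p = 0.00278). PTGS2, the inducible cyclooxygenase, rose from 334.9, 381.2 and 397.9 to 588.6, 487.5 and 510.1 (0.51 ± 0.11, adjusted p = 0.00107), and TLR4, a receptor for bacterial lipopolysaccharide, by 0.38 ± 0.10 (adjusted p = 0.0208). edgeR gave adjusted p-values of 0.12, 0.0672 and 0.104 for these last 3 genes. With 1 library left out, PTGS2 kept the call in all 6 fits, C3 and CCL20 in 5, CXCL6 in 4, PI3 in 3, LCN2 in 2 and TLR4 in 1, whereas CXCL1 and CXCL8 kept it in all 6. In the list of inflammatory chemokines and NF-kB genes 6 of 27 members tested rose and 0 fell by adjusted p-value, against 0.29% of protein-coding genes that rose, with a median of 0.461 against 0.01 over all protein-coding genes tested. Its count was 3 without vehicle replicate 2 and 5 or 6 without any other library. TNFAIP2, the most abundant other member, was at 0.36 ± 0.12 (adjusted p = 0.204).

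**Figure D3:**
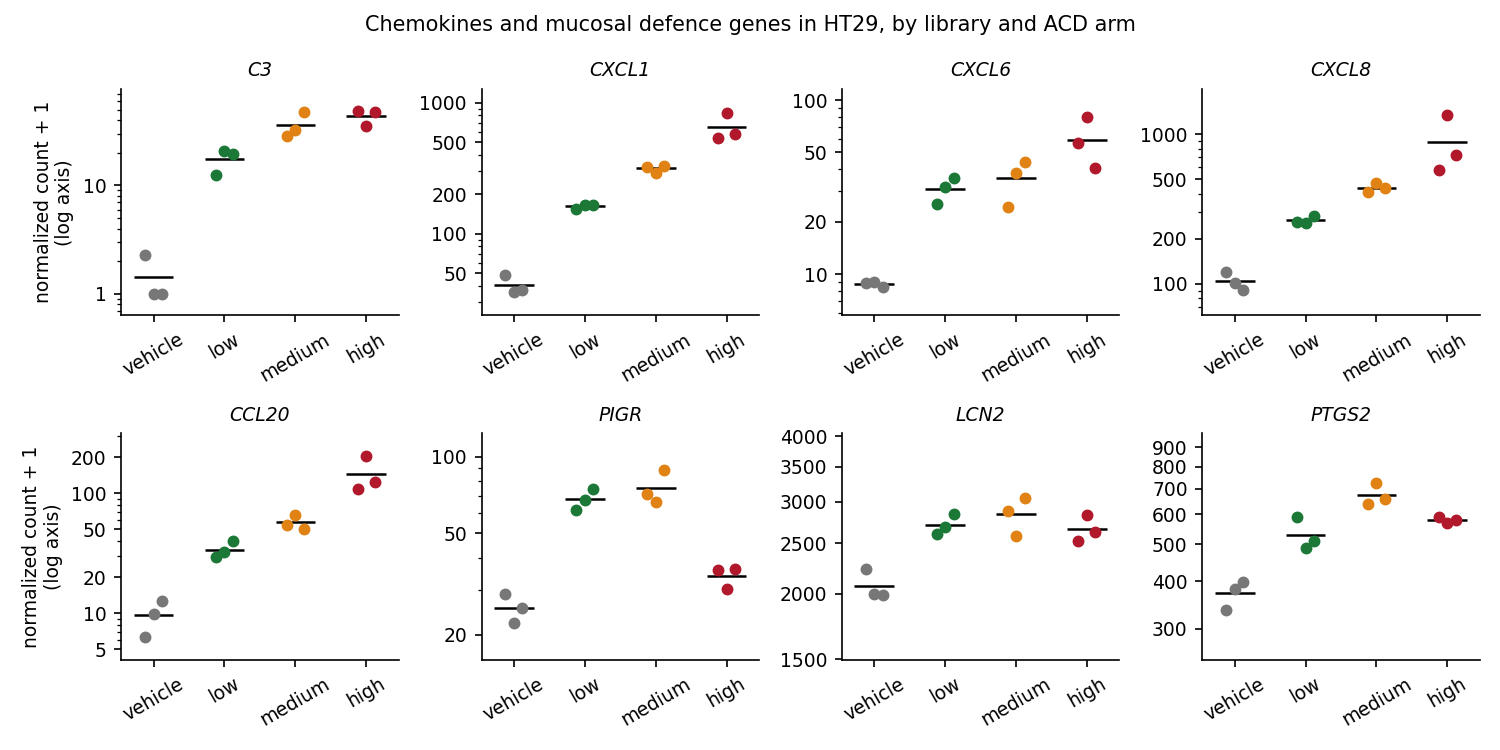
Normalized counts plus 1 (log axis, scaled per panel) of C3, 4 chemokines, PIGR, LCN2 and PTGS2 in the 12 HT29 libraries of batch B, with libraries as points and group means as bars (n = 3). All 8 genes were higher in each low dose library than in any vehicle library; CXCL1, CXCL8 and CCL20 were higher again at the high dose, where PIGR was lower than at the low dose.

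The chemokine promoters are shown because 3 of them hold the same 9 letters. The windows are as above, and capitals mark GGAATTTCC on either strand, a form of the NF-kB motif that was picked after these sequences had been read. CXCL1 is at chr4:73869143-73869392, CXCL6 at chr4:73836428-73836677 and CXCL8 at chr4:73740319-73740568, all on the plus strand.
CXCL1: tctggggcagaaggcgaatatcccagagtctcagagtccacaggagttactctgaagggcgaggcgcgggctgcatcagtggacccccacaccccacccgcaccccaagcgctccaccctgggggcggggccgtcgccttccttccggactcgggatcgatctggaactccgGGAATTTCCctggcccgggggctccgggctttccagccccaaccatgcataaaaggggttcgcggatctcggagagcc
CXCL6: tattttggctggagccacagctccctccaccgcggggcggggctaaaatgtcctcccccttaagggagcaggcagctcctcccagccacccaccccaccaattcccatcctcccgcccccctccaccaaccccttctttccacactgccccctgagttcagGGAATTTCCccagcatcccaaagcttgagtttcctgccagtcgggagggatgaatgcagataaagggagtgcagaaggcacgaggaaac
CXCL8: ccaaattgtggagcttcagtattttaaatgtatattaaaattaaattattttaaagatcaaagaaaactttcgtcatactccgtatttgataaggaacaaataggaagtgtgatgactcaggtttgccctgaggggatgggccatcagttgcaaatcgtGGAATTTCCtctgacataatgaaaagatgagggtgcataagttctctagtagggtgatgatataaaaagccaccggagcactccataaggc
The match began 78, 89 and 91 bases before the start site. Over all 35116 windows 0.461% held it, and over genes 0.56%. Of the 15 coding DEGs with a window these 3 held it, and the CCL20 window did not. Since the letters were chosen from these promoters, the counts describe them and test nothing.

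The remaining coding DEGs did not share a list. PGGHG, a glucosidase that acts on the sugars of collagen, was at 1465.5, 1548.9 and 1402.3 in vehicle and 2258.9, 2421.2 and 2319.4 at the low dose (0.66 ± 0.12, adjusted p = 2.66e-05). LY6G5B, in the class III region of the major histocompatibility complex, was at 243.6, 252.4 and 262.8 and at 406.8, 415.8 and 470.1 (0.76 ± 0.11, adjusted p = 1.64e-09), and overlaps 2 genes on its strand. ALS2CL rose by 0.66 ± 0.13 (adjusted p = 0.000312), CCDC78 by 0.76 ± 0.18 (0.0087) and BMF, a BH3-only protein that promotes apoptosis, by 0.66 ± 0.15 (0.00507). PGGHG, LY6G5B and ALS2CL kept the call with any of the 6 libraries left out, and CCDC78 and BMF in 2 of 6. By edgeR the adjusted p-value was 0.0442 for PGGHG and 0.00347 for LY6G5B, but 0.0617 for ALS2CL, 0.0936 for CCDC78 and 0.0873 for BMF.

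RTEL1-TNFRSF6B is an annotated readthrough of 2 neighbouring genes on chromosome 20. It rose from 161.5, 174.1 and 154.3 to 284.7, 296.2 and 217.2 (0.70 ± 0.18, adjusted p = 0.0234 by DESeq2 and 0.165 by edgeR) and kept the call in 1 of 6 fits with a library left out. It shares exons with RTEL1, which was at 0.17 ± 0.15 (adjusted p = 0.94), and TNFRSF6B was listed at 0 in all 6 libraries. How the counting divided reads among these 3 annotations is not known.

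The 2 coding genes that fell were small changes near the limit. KCNJ14, an inward-rectifier potassium channel, fell from 291.2, 267.1 and 236.2 to 185.1, 160.5 and 176.2 (-0.60 ± 0.14, adjusted p = 0.00384 by DESeq2 and 0.0791 by edgeR). UPK3BL1, a uroplakin-like gene that overlaps 3 genes on its strand, fell from 971.7, 785.1 and 716.1 to 541.3, 578.0 and 514.5 (-0.59 ± 0.13, adjusted p = 0.00114 and 0.0768). The groups of both genes were apart. Neither call held in all 6 fits with a library left out, with 2 of 6 for KCNJ14 and 5 of 6 for UPK3BL1.

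Without the fold limit 93 of all genes (0.541%) and 57 coding genes passed the adjusted p-value (0.435% of coding genes tested), 38 of them higher (0.29%) and 19 lower (0.145%). The most abundant of the smaller rises were TXNRD1, a thioredoxin reductase (0.21 ± 0.06, adjusted p = 0.0425), ACADVL, an enzyme of fatty acid oxidation (0.24 ± 0.06, 0.0113), CREBZF (0.19 ± 0.05, 0.0499), HIF1A, the oxygen-regulated transcription factor subunit (0.28 ± 0.06, 0.00574), and LCN2. The most abundant falls were FTH1, the ferritin heavy chain (-0.25 ± 0.07, 0.0329), PCSK7 (-0.33 ± 0.09, 0.0399), ELAVL1 (-0.18 ± 0.05, 0.0185), SRM, the spermidine synthase (-0.29 ± 0.07, 0.0275), and SRSF4 (-0.19 ± 0.05, 0.0135). FTH1 was at 112248.9, 99581.8 and 95270.9 in vehicle and 88369.4, 86656.6 and 82886.6 at the low dose. These 10 genes were apart between the groups, but edgeR gave none of them an adjusted p under 0.1, with a lowest value of 0.12 for LCN2. ADGRF1, an adhesion receptor named here after its values were seen, rose from 696.3, 727.3 and 790.5 to 1217.0, 1006.6 and 1021.4 (0.55 ± 0.09, adjusted p = 7.49e-07 by DESeq2 and 0.0231 by edgeR).

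Lists of other pathways held 0 to 2 calls each, where 0.435% of all coding genes tested passed, so that counts this low do not set lists of this size apart from the background. DUSP6, a phosphatase that feeds back on ERK, rose by 0.26 ± 0.06 (adjusted p = 0.00574), the only one of 33 members tested of the ERK and immediate early list. GDF15, a stress cytokine, rose by 0.29 ± 0.07 (0.0232), the only one of 23 members of the amino acid stress list. Both calls held in 2 of 6 fits with a library left out, and edgeR gave adjusted p-values of 0.179 for DUSP6 and 0.236 for GDF15. In the second list ATF4 (-0.09 ± 0.08) and SLC7A5 (0.01 ± 0.18) did not pass. In the NRF2 and glutathione list TXNRD1 rose and FTH1 fell, out of 26. By adjusted p-value 0 members passed in the lists of endoplasmic reticulum chaperones (20 tested), cholesterol synthesis (24), fatty acid synthesis (17), metallothioneins (9), drug conjugation and efflux (24), WNT targets (16), hypoxia and glycolysis (29), p53 targets (25), S phase (34), mitosis (30), histones (22) and intestinal differentiation (30). Summed counts were higher in every low dose library for fatty acid synthesis (median log2 fold change 0.108, 16 of 17 positive), cholesterol synthesis (0.029) and mitosis (0.051). They were lower in every low dose library for metallothioneins (-0.284) and histones (-0.172). The sums of the NRF2 and glutathione list were lower too, though its median was 0.01, with 16 of 26 positive. The sums of the other lists named here overlapped. Among 16 calcium and sodium channels and neurotransmitter receptors with enough counts 0 passed. Of these kinds, the background above names sodium channels as a site of action of the alkaloids. RNA levels do not measure that action, so that the absence of calls does not bear on it.

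Of 33 interferon-stimulated genes tested 0 passed. Their log2 fold changes were positive in 31, with a median of 0.308 and a range of -0.12 to 1.17. Their summed normalized counts were 19479.1, 17600.5 and 19596.2 in vehicle and 21654.0, 24360.7 and 21874.3 at the low dose, so that the groups were apart. Low dose replicate 2 was the highest, and the list median was 0.202 without it. Without vehicle replicate 1 or 3, 1 member passed. OAS3, an antiviral sensor, was at 0.51 ± 0.20 (adjusted p = 0.416). Over all protein-coding genes tested, 6922 of 13111 had a positive value.

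Cytosolic ribosomal protein genes stood on the other side. Of 79 members tested 0 had a positive log2 fold change and 0 passed, with a median of -0.20. Their summed counts were 1654038.1, 1346969.7 and 1292842.0 in vehicle and 1191162.0, 1190031.8 and 1361781.0 at the low dose. The groups overlapped, since low dose replicate 3 lay above vehicle replicates 2 and 3. Without vehicle replicate 1 the median was -0.084. The nuclear-encoded respiratory chain genes had 5 of 54 positive values, a median of -0.203 and -0.071 without vehicle replicate 1, and again 0 calls. Vehicle replicate 1 was the highest of the 6 libraries in both lists, and both differences shrank by more than 1.5 times without it.

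Mitochondrial RNA did not differ detectably from vehicle at this dose. The 2 mitochondrial rRNAs took 1.22%, 1.14% and 1.18% of the counts in vehicle and 1.13%, 1.14% and 0.982% at the low dose, a two-sided exact permutation p of 0.2, where 0.1 is the smallest that 3 against 3 libraries allow. MT-RNR1 was at -0.22 ± 0.09 (adjusted p = 0.489), with the groups apart, and MT-RNR2 at -0.12 ± 0.09 (0.913). The 13 mitochondrial mRNAs took 8.91%, 7.60% and 8.32% in vehicle and 9.92%, 7.22% and 6.43% at the low dose (exact permutation p = 0.7), and the low dose spread was the wider. Their log2 fold changes ran from -0.66 for MT-ATP8 to 0.24 for MT-ND2 and 0 of 13 passed. At the medium dose MT-RNR1 was higher than at the low dose by 1.53 ± 0.09 (adjusted p = 9.95e-61) and MT-RNR2 by 0.89 ± 0.09 (2.23e-18).

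The multi-copy RNA genes held 5 DEGs that form 2 families. The first was 7SL RNA, the RNA of the signal recognition particle, which guides secreted proteins to the endoplasmic reticulum. RN7SL2 had 218.4, 153.6 and 116.0 normalized counts in vehicle and 1625.5, 1888.5 and 2761.4 at the low dose. RN7SL1 had 178.7, 128.0 and 103.2 and then 787.8, 840.9 and 987.9. In both genes the low dose libraries were several times above the highest vehicle library. The log2 fold changes were 3.69 ± 0.56 for RN7SL2 (adjusted p = 9.04e-08 by DESeq2 and 0.0128 by edgeR) and 2.68 ± 0.60 for RN7SL1 (0.00329 and 0.12). As a share of all counts, the 3 annotated 7SL genes went from 0.00164%, 0.00121% and 0.000933% to 0.0102%, 0.0118% and 0.0162% (exact permutation p = 0.1, the smallest possible).

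Reads cannot be assigned safely between the 2 genes, which are 98.3% identical. 7SL RNA has no poly(A) tail as a rule, and the part that the mRNA selection of the libraries had in its counts was not tested. The separate values of the 2 genes should be read as uncertain and their sum as the safer one.

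The second family was 3 annotated lncRNA genes of chromosome 21, ENSG00000280614, ENSG00000280800 and ENSG00000281181, each 923 bases long, 100.0% identical and on the minus strand inside the 18S ribosomal RNA genes RNA18SN3, RNA18SN2 and RNA18SN1 of the RefSeq annotation. They were grouped after their values had been seen. ENSG00000280614 (8393419 to 8394341) had 25980.5, 23614.7 and 22033.7 normalized counts in vehicle and 2576.0, 4985.9 and 2778.7 at the low dose. In each low dose library all 3 genes had equal raw counts, of 3103, 5840 and 2571, whereas in vehicle replicates 1 and 2 the counts differed between the copies. The falls were -2.79 ± 0.28, -2.74 ± 0.60 and -2.67 ± 0.28 (adjusted p = 4.98e-19, 0.00244 and 9.95e-18), and since the sequences are the same they were read as 1 measurement rather than 3. edgeR called ENSG00000280614 and ENSG00000281181 (0.00249 each) but not ENSG00000280800 (0.0791). The high dose libraries, which entered the same fits, were at 2686.2, 14851.8 and 4547.1 normalized counts for ENSG00000280800. For ENSG00000280614 and ENSG00000281181 they were at 2686.2, 3448.0 and 1821.1. The larger SE of ENSG00000280800 is therefore not a property of the low dose and vehicle libraries alone. Together with ENSG00000281383, one more annotation of this kind, these genes took 0.275%, 0.319% and 0.281% of the counts in vehicle and 0.0325%, 0.0643% and 0.0360% at the low dose (exact permutation p = 0.1, the smallest possible). Whether the reads came from 18S ribosomal RNA or from its antisense strand cannot be told apart without the strand setting.

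**Figure D4:**
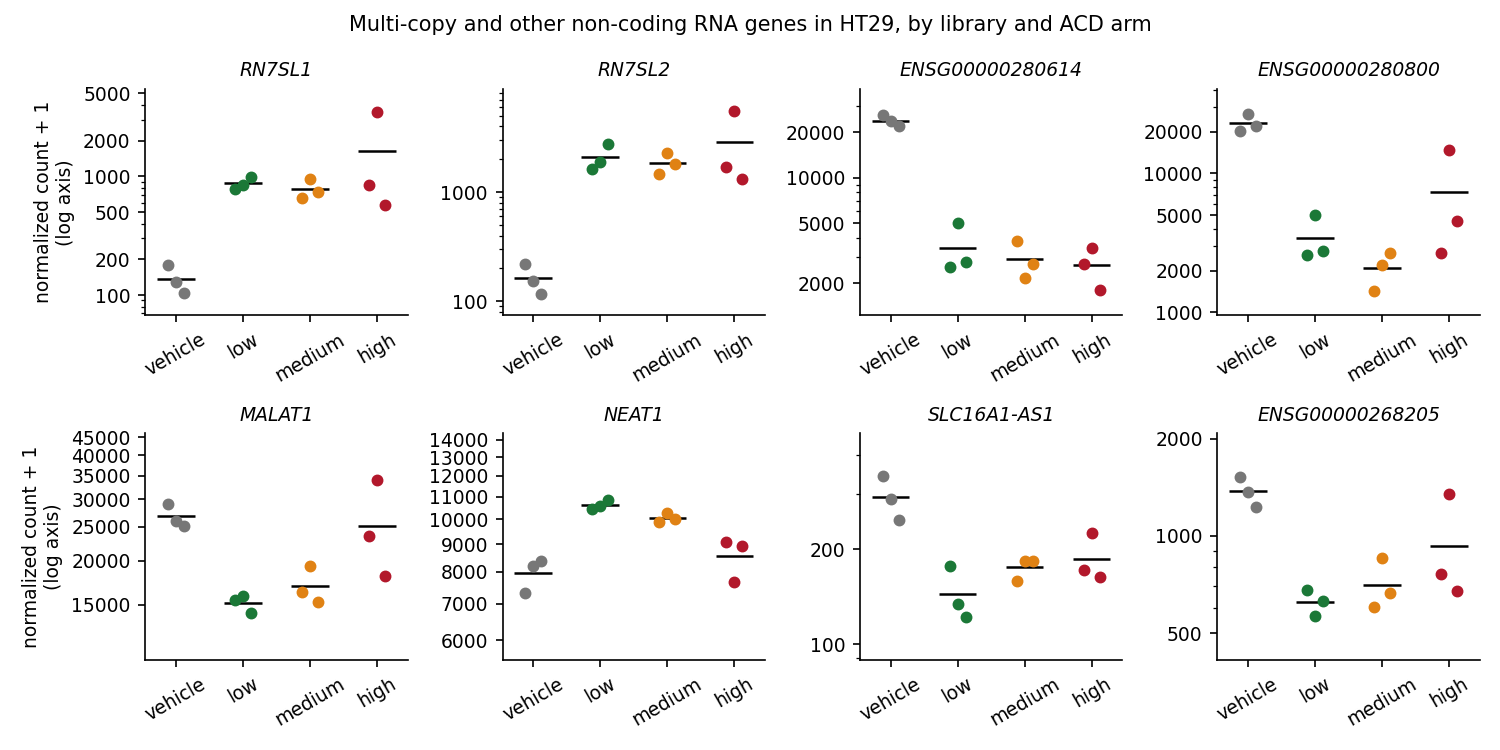
Normalized counts plus 1 (log axis, scaled per panel) of the 7SL genes, 2 of the 18S-associated lncRNA genes, MALAT1, NEAT1, SLC16A1-AS1 and ENSG00000268205 in the 12 HT29 libraries of batch B, with libraries as points and group means as bars (n = 3). In all 8 panels the low dose libraries lie clear of the vehicle libraries, above them for the 7SL genes and NEAT1 and below them for the other 5.

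Of the other non-coding DEGs 20 fell and 4 rose. MALAT1, an abundant nuclear lncRNA on chromosome 11 (65497640 to 65508073), fell from 29092.8, 26023.3 and 25189.4 to 15427.8, 15858.3 and 14182.3 (-0.82 ± 0.19, adjusted p = 0.00472 by DESeq2 and 0.133 by edgeR), and kept the call in 3 of 6 fits with a library left out. NEAT1, the scaffold of nuclear paraspeckles and its neighbour, went the other way and below the fold limit, from 7319.5, 8215.7 and 8394.7 to 10450.9, 10556.5 and 10841.5 (0.41 ± 0.08, adjusted p = 0.000186 and 0.0829). Both genes were apart between the groups and were named after their values had been seen.

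Among the named falls ENSG00000268205, an lncRNA on chromosome 19, went from 1519.8, 1371.1 and 1232.1 to 679.1, 565.2 and 626.9 (-1.14 ± 0.23, adjusted p = 0.000454 by DESeq2 and 0.0829 by edgeR). SLC16A1-AS1, antisense to the lactate transporter gene SLC16A1, went from 341.6, 289.0 and 247.9 to 176.8, 133.2 and 121.0 (-1.02 ± 0.19, adjusted p = 4.95e-05 and 0.0442). SLC16A1 itself, on the opposite strand, did not pass (-0.01 ± 0.08, adjusted p = 0.998). ARAP1-AS1 had 148 counts in vehicle and 2 at the low dose, a ratio of 79.3 with a 95% counting interval of 21.6 to 661.0. The interval leaves out the spread between libraries, and edgeR did not call the gene (adjusted p = 0.0672). Vehicle replicates 1, 2 and 3 were at 103.3, 31.5 and 28.7 normalized counts. The vehicle libraries of batch A were at 2.52, 0.233 and 0.0 CPM, so that the vehicle level is uncertain. Medium dose libraries were at 23.4, 4.7 and 14.9 normalized counts and high dose libraries at 0.0.

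Some of the non-coding falls lay inside coding genes. Counting all 23 non-coding DEGs that fell, 9 lay on the strand of a coding gene, 5 of them wholly within its introns and the others overlapping an exon. The like share over all non-coding genes tested is not given here, so that these counts do not mark the falls out. Of those 9 coding genes 0 passed the adjusted p-value, which is near the background, where 0.435% of coding genes passed. ENSG00000279573 within BPTF was at 72.8, 58.5 and 52.1 in vehicle and 17.4, 9.4 and 14.1 at the low dose (-2.16 ± 0.36, adjusted p = 2.68e-06), whereas BPTF was at -0.07 ± 0.20 (0.989). ENSG00000279281 within MSI2 was at -3.02 ± 0.75 (0.0148 by DESeq2 and 0.0461 by edgeR), and MSI2 at 0.02 ± 0.10 (0.998). ENSG00000279281 had only 13, 23 and 17 raw counts in vehicle and 3, 1 and 3 at the low dose. With a library left out, 3 fits gave it an adjusted p-value, and it kept the call in 0 of them. Counts of these genes may hold unspliced reads of the coding gene, and the part of such reads was not tested. Of the 4 rises, PKD1P1, a pseudogene copy of PKD1 (0.93 ± 0.20, adjusted p = 0.00215), and ENSG00000255026, just upstream of PGGHG on chromosome 11 (0.73 ± 0.18, 0.00886), had higher counts than CYP1B1-AS1 and TTLL10-AS1. edgeR gave PKD1P1 an adjusted p of 0.0978 and ENSG00000255026 one of 0.109. TTLL10-AS1 was at 4.0, 8.8 and 8.5 in vehicle and 24.1, 29.9 and 31.3 at the low dose.

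The low dose was then set against the next doses, a test that leaves the vehicle out. Between medium and low dose 69 of 13383 genes passed the adjusted p-value (0.516%), 0.351% were higher at the medium dose, and 24 were DEGs (0.179%). Of the 17 coding genes that rose at the low dose 6 were higher again at the medium dose and 0 were lower. CYP1A1 went from a mean of 91.3 to 2182.6 normalized counts, a difference of 4.57 ± 0.26 (adjusted p = 1.31e-66), CYP1B1 rose by a further 1.68 ± 0.15 (4.91e-25), ALDH1A3 by 1.41 ± 0.10 (1.83e-41), CXCL1 by 0.96 ± 0.18 (3.97e-05), PI3 by 0.72 ± 0.15 (0.000319) and TIPARP by 0.69 ± 0.09 (1.06e-11). The low dose thus gave a small part of the CYP1A1 level seen at 100 µg/mL. ALDH3A1 (0.94, adjusted p = 1.09e-36), UGT1A6 (0.53, 0.00818) and ADGRF1 (0.88, 1.68e-21) were also higher at the medium dose. edgeR did not call PI3 (adjusted p = 0.0635) or UGT1A6 (0.208) between these doses.

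Between high and low dose 2.42% of 15018 genes tested were higher and 2.35% lower, and 268 were DEGs (1.78%). Of the 17 coding rises 9 were higher at the high dose, among them CCL20 by 2.13 (adjusted p = 1.85e-10), CXCL1 by 2.01 (3.89e-27), CXCL8 by 1.74 (9.5e-10) and C3 by 1.41 (0.00479). PIGR was lower, by 0.99 on the log2 scale (log2 difference -0.99, adjusted p = 0.00206), at 34.9, 29.1 and 35.1 normalized counts. PGGHG, LY6G5B, ALS2CL, CCDC78, BMF and RTEL1-TNFRSF6B differed from the low dose at neither higher dose. Of the 20 other non-coding genes that fell, 0 of the 15 with an adjusted p-value differed between medium and low dose. At the high dose MALAT1 was higher than at the low dose by 0.73 (adjusted p = 0.00411 by DESeq2 and 0.0558 by edgeR). Of the 5 multi-copy genes 0 differed at either dose, and with an SE of 0.56 for RN7SL2 moderate differences would not have been detectable. The RN7SL2 high dose libraries in this fit were at 1682.0, 5560.9 and 1320.1 normalized counts. From low to high dose, log2 changes over vehicle were 3.69, 3.51 and 4.13 for RN7SL2 and 2.68, 2.53 and 3.59 for RN7SL1. These changes were -2.79, -3.04 and -3.17 for ENSG00000280614, -2.67, -2.92 and -3.05 for ENSG00000281181, and -2.74, -3.46 and -1.65 for ENSG00000280800. Among them, only the last value did not pass (adjusted p = 0.0671 by DESeq2).

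The cell lines were compared in 1 fit of 12 libraries in which the term for the difference was tested. It gave 25 DEGs of 8986 genes tested (0.278%), 15 with the larger value in HT29 (0.167%). Of the 17 coding rises in HT29 only 5 had an adjusted p-value for this term, since DESeq2 filtered the others on low mean counts, and 4 of the 5 differed. edgeR tested the others too, and of these gave adjusted p-values under 0.05 for CXCL8 (0.000434), CYP1A1 (0.0105) and BMF (0.0334). The change in HT29 minus that in SW1783 was 1.68 ± 0.17 for CYP1B1 (adjusted p = 4.64e-20), 1.2 ± 0.10 for ALDH1A3 (1.01e-27), 1.01 ± 0.12 for TIPARP (4.17e-15) and 5.54 ± 1.2 for C3 (0.00112). In SW1783 the same dose gave -0.32 ± 0.04, -0.15 ± 0.02, -0.24 ± 0.07 and -0.02 ± 0.06 for these 4 genes, and the first 3 passed as small falls (adjusted p = 1.02e-13, 6.72e-09 and 0.0105). PGGHG was the fifth gene and did not differ beyond the error (0.24 ± 0.18, adjusted p = 0.511).

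The starting levels of these genes differed widely between the lines. ALDH1A3 was at 14623.0 ± 240.3 normalized counts (SD, n = 3) in SW1783 vehicle on the scale shared by the lines, and C3 at 1162.6 ± 39.3, where HT29 vehicle held 1 count in all. CYP1A1 was at 15.6 ± 2.79 in SW1783 vehicle and 6.42 ± 3.45 in HT29 vehicle on that scale, and SW1783 had 11, 18 and 15 raw counts in vehicle and 12, 10 and 8 at the low dose. CXCL1 had 4, 5 and 3 counts there and then 4, 2 and 5. At such counts a change of CXCL1 in SW1783 was not detectable at this depth. In SW1783 alone 0.118% of 9283 genes were DEGs at the low dose, and without the fold limit 306 (3.3%) passed the adjusted p-value, against 93 of 17196 (0.541%) in HT29. The lines were fitted apart, with unlike numbers of genes kept by the filter. Their spread was unlike too, with an SE for CYP1B1 of 0.15 in HT29 and 0.04 in SW1783. These shares are therefore not a like measure of how many genes responded.

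**Figure D5:**
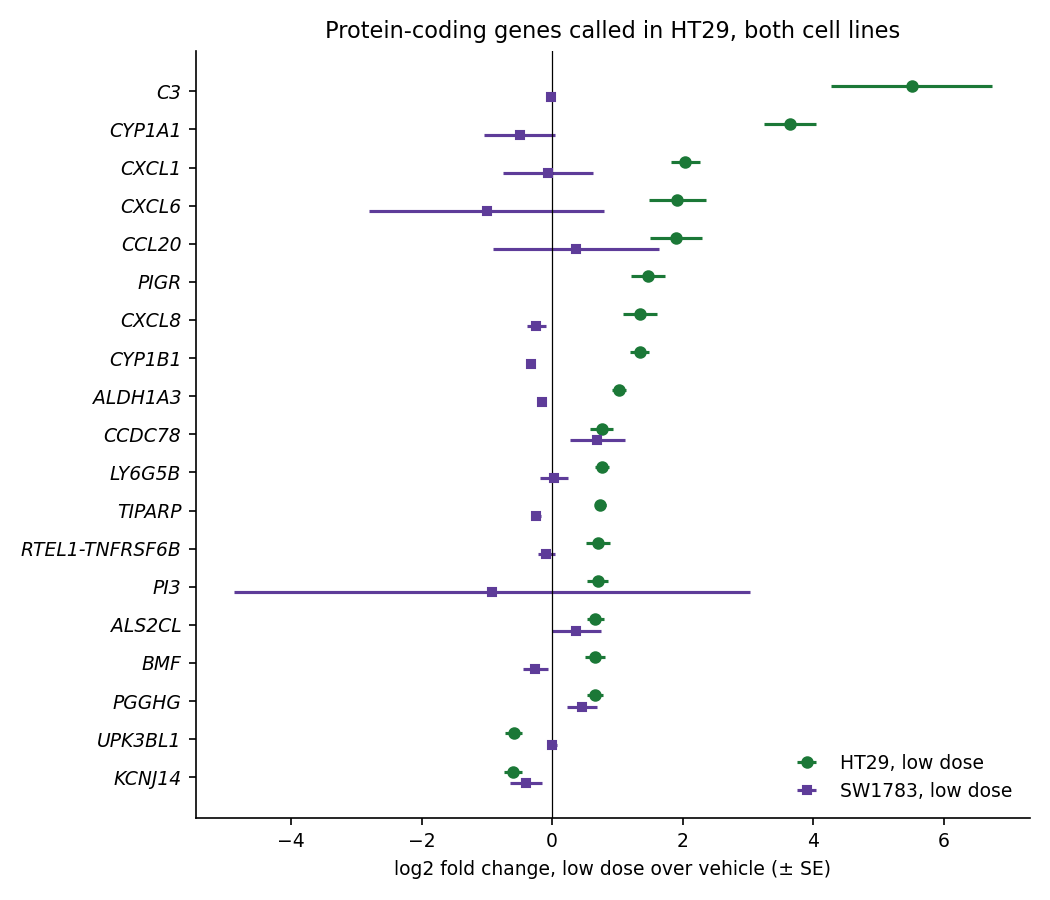
Log2 fold change at the low ACD dose over vehicle (horizontal axis, bars are SE) in HT29 (green circles) and SW1783 (purple squares) for the 19 coding DEGs of HT29, with 3 libraries per group. The SW1783 values of CYP1B1, ALDH1A3 and TIPARP lie just below 0 with short bars, whereas CXCL6, CCL20 and PI3 have wide bars there because of their low counts, and PIGR had no counts to fit.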

How the data were processed

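Whole-transcriptome RNA-seq of 36 libraries was made by the study with a directional mRNA kit and 100-base paired reads. Per the labels, the authors used FastQC 0.11.9, Trim Galore 0.6.5, STAR 2.7.3a and RSEM 1.3.3 on GRCh38, and deposited RSEM expected counts per gene, without normalization. Of these values 8.84% were not whole, since RSEM divides reads between similar genes, and all were rounded before testing. Of 60675 gene IDs 56558 matched GENCODE v44, and the other 4117 held 0.142% of the counts.

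Normalized counts are counts divided by DESeq2 size factors. The 12 HT29 libraries of batch B were fitted together with DESeq2 1.42.0 (R 4.3.3, Wald test, Benjamini-Hochberg adjustment, default independent filtering). A DEG had an adjusted p under 0.05 and a change of more than 1.5-fold. The difference between lines was an interaction term over 12 libraries. edgeR 4.0.16 (quasi-likelihood, TMM) was the alternative tool. Shares of counts were compared by exact permutation (scipy 1.17.1). Counting intervals are exact and cover counting error only. Promoter sequences came from RefSeq GRCh38.p14. Scripts were tested on simulated data.

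Genes named were all coding DEGs, the largest other DEGs at a mean count of 100 or more, the most abundant smaller changes, and list members. Genes, lists and comparisons were chosen with earlier results of these data known. A few results are not reported here.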

Additional observations from a re-analysis of the deposited data

Results flagged for a closer look

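Each value here is the log2 change at the low dose in HT29 minus that in SW1783, from the interaction term of the fit over both lines (DESeq2, 3 libraries per group), and each passed an adjusted p of 0.05 in that test. The coding differences were 5.54 for C3, 1.68 for CYP1B1, 1.2 for ALDH1A3, 1.18 for PTGS2, 1.01 for TIPARP and -0.62 for LRRC37A2. PTGS2 rose in HT29 by 0.51 ± 0.11 and fell in SW1783 (-0.65 ± 0.06). AHRR (0.62) and GDF15 (-0.63) passed by DESeq2 but not by edgeR, with adjusted p-values of 0.118 and 0.0703. AHRR did not pass in HT29 on its own (0.22 ± 0.22) and fell in SW1783 (-0.39 ± 0.06). GDF15 rose in both lines by DESeq2, by 0.29 ± 0.07 in HT29 and 0.94 ± 0.12 in SW1783.

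The mitochondrial rRNAs differed by -2.83 for MT-RNR1 and -1.80 for MT-RNR2. MT-RNR1 was at 2.64 ± 0.05 in SW1783 and -0.22 ± 0.09 in HT29, and MT-RNR2 at 1.70 ± 0.05 and -0.12 ± 0.09. Among non-coding genes the differences were -1.16 for MALAT1, -1.19 for ENSG00000268205, 0.92 for PKD1P1 and 5.21 for RN7SL2. They were -2.20 for ENSG00000280614 and -2.15 for ENSG00000280800, which share their sequence. ENSG00000281181, which has that sequence too, did not pass (-0.89 ± 0.98, adjusted p = 0.691 by DESeq2 and 0.63 by edgeR). Its SW1783 vehicle counts were 686, 5128 and 683, against 686, 1342 and 683 for ENSG00000280614 and ENSG00000280800. The difference is therefore uncertain for this sequence. MALAT1 was at 0.36 ± 0.06 in SW1783. With 3 libraries a group, no library could be tested as standing apart.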

How the results depend on the processing

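The 48 low dose DEGs became 18 with edgeR, 93 without the fold limit, 21 when protein-coding genes alone were fitted (by construction), and 25 to 47 when 1 of the 6 libraries was left out. Protein-coding DEGs (19) became 9, 57 and 12 to 21 (12 without vehicle replicate 2), and multi-copy DEGs (5) became 3 with edgeR and 3 to 6 with a library left out. DESeq2's filter aimed at an adjusted p of 0.05 in place of its default was added after seeing the data, with the calls of both already known. It gave 49 DEGs, 20 of them coding, and without high dose replicate 2 it gave 73 where the default gave 36. Fits of the 6 libraries alone gave 62, and the vehicle of batch A gave 49. Between medium and low dose 24 DEGs became 15 with edgeR and 69 without the fold limit. Between high and low dose 268 became 716 without it. For the difference between lines 25 became 191 without it and 17 to 42 with a library left out, with 42 without HT29 vehicle replicate 3. As shares of counts without mitochondrial and multi-copy RNA, the difference was -0.275 percentage points for the 18S-associated lncRNA genes and -0.0916 for other lncRNA genes. The causes were not tested.

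Over 87 genes past the adjusted p and 1332 values under other settings, 945 kept direction and call, 387 lost the call and 0 turned direction. These genes were chosen for passing in this same comparison, and the settings reuse the same low dose libraries. The vehicle of batch A is not an independent check either. A kept direction was thus to be foreseen and is no further support. Values that turned sign were all of genes without a call. With a library left out the log2 fold change ran from -0.01 to 0.09 for AHR, -0.01 to 0.07 for NQO1 (with -0.0 among them), -0.41 to 0.24 for MT-ND1 (with -0.14), -0.15 to 0.43 for MT-ND2, -0.40 to 0.01 for MT-CYB, -0.14 to 0.11 for MT-CO1 (with -0.02), -0.18 to 0.09 for MT-CO3 and -0.36 to 0.12 for MT-ATP6 (with 0.06 and 0.09). With the replicate block MT-ND1 was at -0.05 and MT-CO1 at -0.0, and with the vehicle of batch A MT-ND1 was at -0.0, MT-CO3 at 0.02 and MT-ATP6 at 0.04. Replicate numbers did not pair vehicle and low dose libraries, with correlations of their deviations of -0.14, 0.22 and -0.20. A fit with the replicate block gave 55 DEGs, 24 coding and 5 multi-copy, 32 between medium and low dose, 234 between high and low dose, and 22 for the difference between lines.

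With 3 libraries a group, exact tests of shares cannot go below p = 0.1. Genes at a few counts, such as C3 and ARAP1-AS1, have wide intervals.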
